A study of Homo sapiens with 12 samples.

Results

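The transcripts of 10 autophagy and lysosome genes were followed in HK-2 cells. The genes were SQSTM1, MAP1LC3B, GABARAPL1, ULK1, BECN1, ATG5, ATG7, WIPI1, TFEB and LAMP1. They were chosen by name, from their known roles and with earlier results of these data known, out of 35238 genes in the expression table. All 10 passed the filter on low values in every comparison. HK-2 is an immortalised line derived from human kidney proximal tubule, so every library came from 1 line. All cells were transfected with 10 nM of a short interfering RNA, either a scrambled control (SCR) or one directed against POLR2A (siB), which lowers its target only for a time. The toxin was aristolochic acid I (AAI), a plant compound that injures the kidney and forms DNA adducts, given at 25 µM for 24 hours in each arm, and its vehicle dimethyl sulfoxide (DMSO) served as the control. This gave 4 groups of 3 replicates (SCR DMSO, SCR AAI, siB DMSO and siB AAI) and 12 polyadenylated RNA libraries. The comparisons asked what AAI did to these transcripts in each arm, what the POLR2A knockdown did with and without AAI, and whether the AAI response differed between the arms.

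Autophagy encloses cytoplasm in a double membrane and delivers it to the lysosome for breakdown. The kinase ULK1 starts the process, a lipid kinase complex containing BECN1 marks the membrane with phosphatidylinositol 3-phosphate, and WIPI1 binds that lipid on the growing membrane. ATG7 and ATG5 belong to the conjugation machinery that attaches ATG8 family proteins, among them MAP1LC3B and GABARAPL1, to the membrane. SQSTM1 (p62) is a cargo receptor that binds ubiquitin and ATG8 proteins and is itself broken down by autophagy, and its gene is a known target of the stress factor NRF2. TFEB is a transcription factor for lysosome and autophagy genes, and LAMP1 is an abundant glycoprotein of the lysosome membrane. Proximal tubule cells are known for a busy endosome and lysosome system, because they take up filtered protein. Transcript levels do not measure autophagic flux.

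The libraries held between 15844015 and 42805294 reads, siB AAI replicate 1 being the shallowest and SCR DMSO replicate 2 the deepest. Levels are in CPM, the reads of a gene as a share of all reads counted in its library, scaled to a total of 1000000. Tubule epithelial markers were present (11 of 17 had a mean of at least 1 CPM over the 12 libraries, PAX8 341 CPM and KRT8 657 CPM among them), with the proximal tubule enzyme gene GGT1 at 134 CPM, SLC34A1 at 1.19 CPM, and LRP2, CUBN, AQP1, ANPEP, HNF4A and PAX2 under 1 CPM. The summed tubule markers were 1837 to 2315 CPM in the AAI libraries and 2517 to 2993 CPM in the DMSO libraries, and the fibroblast markers, mostly COL1A1, were 13.2 to 27.2 CPM with AAI and 31.3 to 53.98 CPM with DMSO. Immune and endothelial markers were at most 8.08 and 5.62 CPM in sum, both highest in siB AAI (at least 4.85 and 3.75 CPM there). Mitochondrial reads were 2.67% to 5.01% of each library, and the 3 highest shares were those of siB AAI. The part of these shifts in the results below was not tested. The SCR DMSO libraries were the most unlike each other. The median coefficient of variation over 15325 genes was 32.9% there, 19.1% in SCR AAI, 12.5% in siB DMSO and 14.2% in siB AAI. It was higher in SCR DMSO than in siB DMSO for 9 of the 10 genes, and higher in SCR AAI than in siB AAI for 8 of 10. The transcript AC010970.2 took between 0.189% and 10.6% of a library's reads, and totals without it were used as an alternative.

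POLR2A, the knockdown target, encodes the largest subunit of RNA polymerase II. It was read at 258, 288 and 306 CPM in SCR DMSO and at 138, 143 and 139 CPM in siB DMSO (replicates 1 to 3). With AAI it was read at 673, 719 and 729 CPM in SCR cells and at 266, 220.4 and 210.3 CPM in siB cells. No siB library reached the SCR libraries of the same treatment. The log2 difference of siB from SCR was -1.61 with AAI (adjusted p = 0.000582) and -1.01 with DMSO, where it did not pass the test (adjusted p = 0.505, or 0.0271 with all 4 groups in the fit).

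Promoter windows of RefSeq genes (assembly GRCh38.p14) were read for all 10 genes, from 250 bases before to 50 bases after a transcription start, giving 15 windows because SQSTM1, TFEB and ATG5 have several starts. The motifs searched were the E-box core CACGTG, which TFEB and other basic helix-loop-helix factors can bind and which reads the same on both strands, and TGACNNNGC on either strand, the core of the antioxidant response element that NRF2 can bind. LAMP1 and MAP1LC3B are shown because they were the members with a match, and WIPI1 and GABARAPL1 because they had the widest spread of group means (1.46 and 1.04 on the log2 scale). Each window is printed 5′ to 3′ on the gene's strand, at chr13:113296989-113297288 (plus) for LAMP1, chr16:87392086-87392385 (plus) for MAP1LC3B, chr17:68457447-68457746 (minus) for WIPI1 and chr12:10212627-10212926 (plus) for GABARAPL1, with matches in capitals.
LAMP1: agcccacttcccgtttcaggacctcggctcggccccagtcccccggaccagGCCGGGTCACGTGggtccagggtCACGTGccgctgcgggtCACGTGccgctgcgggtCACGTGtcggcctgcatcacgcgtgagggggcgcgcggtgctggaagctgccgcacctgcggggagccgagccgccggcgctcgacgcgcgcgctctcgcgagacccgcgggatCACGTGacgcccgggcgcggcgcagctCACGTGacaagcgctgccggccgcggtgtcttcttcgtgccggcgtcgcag
MAP1LC3B: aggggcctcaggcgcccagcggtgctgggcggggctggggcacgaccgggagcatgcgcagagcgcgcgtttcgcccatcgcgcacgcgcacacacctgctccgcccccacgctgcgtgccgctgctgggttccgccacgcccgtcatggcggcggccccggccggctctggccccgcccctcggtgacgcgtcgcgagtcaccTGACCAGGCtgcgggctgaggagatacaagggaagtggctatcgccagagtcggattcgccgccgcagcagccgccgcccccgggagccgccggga
WIPI1: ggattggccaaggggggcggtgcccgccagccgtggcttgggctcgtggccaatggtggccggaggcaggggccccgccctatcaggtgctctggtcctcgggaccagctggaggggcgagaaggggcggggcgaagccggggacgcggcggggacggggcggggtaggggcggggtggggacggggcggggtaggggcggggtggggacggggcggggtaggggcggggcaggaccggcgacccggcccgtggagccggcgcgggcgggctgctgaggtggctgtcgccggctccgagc
GABARAPL1: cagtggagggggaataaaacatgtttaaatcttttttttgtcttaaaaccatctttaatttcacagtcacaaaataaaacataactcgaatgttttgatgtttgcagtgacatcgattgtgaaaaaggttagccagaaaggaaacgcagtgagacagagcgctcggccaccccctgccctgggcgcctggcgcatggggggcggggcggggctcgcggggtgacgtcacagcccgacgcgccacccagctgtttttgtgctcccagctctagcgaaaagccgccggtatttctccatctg

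The LAMP1 window held 6 copies of CACGTG, whose first bases lay at -192, -176, -159, -142, -28 and -1 from the start. Of 35116 windows, 7.26% held at least 1 copy, and the LAMP1 window was the single one with 6, the highest number found. The other member windows held none, so among these genes the E-box core was found in LAMP1 alone. TGACNNNGC occurred in 13.3% of all windows, and among the members in LAMP1 (opposite strand, first base at -199, overlapping the first E-box core) and MAP1LC3B (same strand, -46). These matches describe letters in a short window and were not tested against any change. The GC content of the member windows ran from 27.7% (an ATG5 start) to 79.7% (WIPI1), against a median of 58.7% over all windows.

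**Figure D1:**
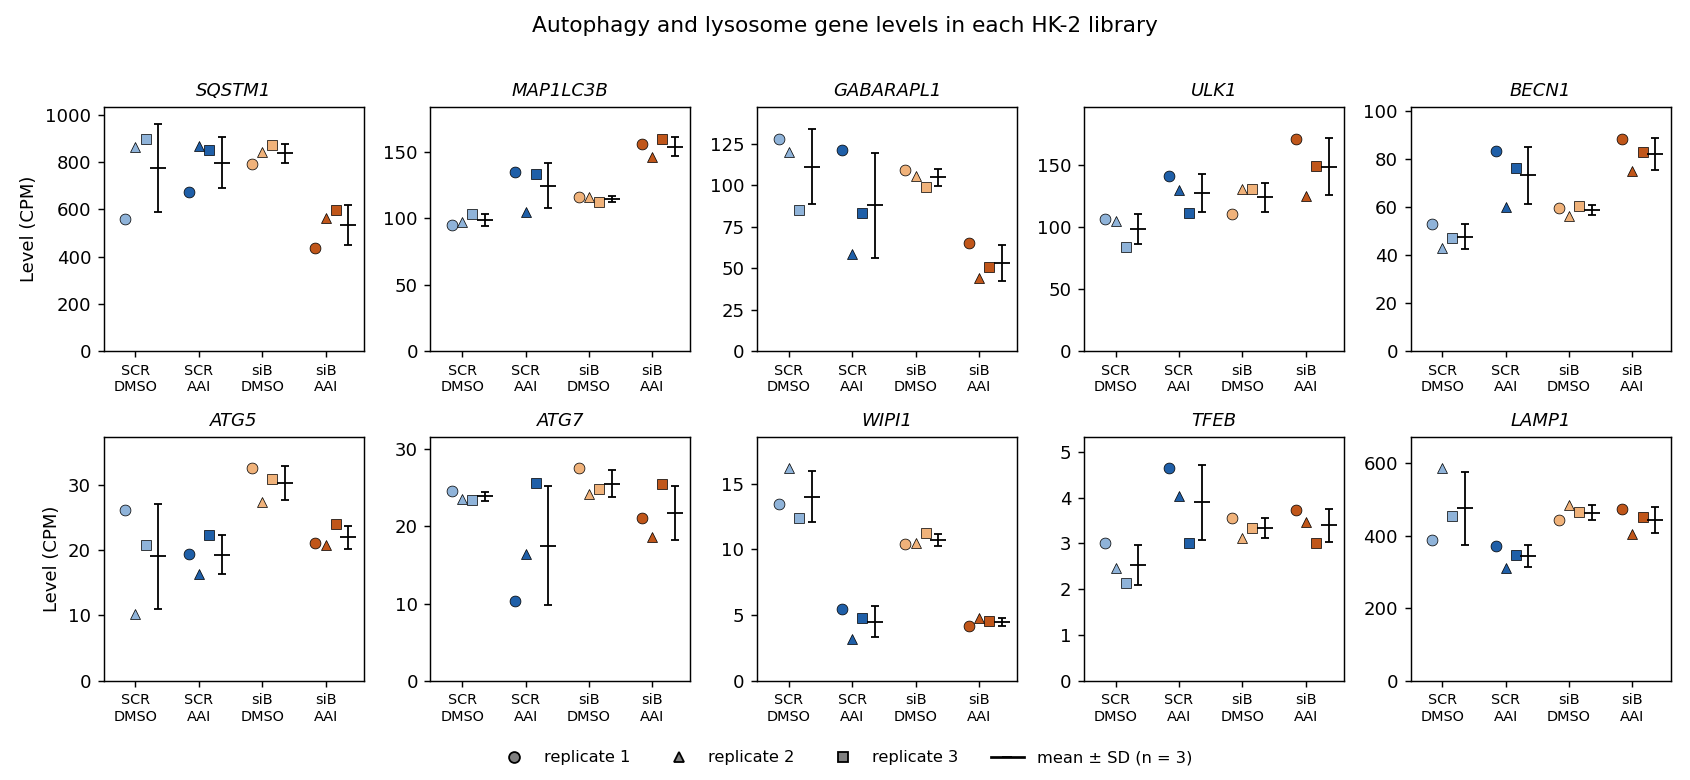
Level of each of the 10 genes in CPM (vertical axes from 0) in the 12 libraries, by group, with a marker for each replicate and bars for the mean ± SD (n = 3). WIPI1 lies at 3.22 to 5.47 CPM in every AAI library and at 10.4 to 16.2 CPM in every DMSO library, and GABARAPL1 and SQSTM1 are lowest in siB AAI.

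AAI lowered WIPI1 in both arms by at least 2-fold. In siB cells AAI also lowered GABARAPL1, SQSTM1 and ATG5 and raised BECN1 and MAP1LC3B, each by less than 2-fold, except that GABARAPL1 passed 2-fold with median-ratio size factors (-1.10 on the log2 scale), narrowly with voom, and without siB DMSO replicate 3 (-1.02) or siB AAI replicate 1 (-1.13). A gene passed the test at an adjusted p under 0.05 in limma, on log2(CPM + 1), with Benjamini-Hochberg adjustment over all genes tested. All log2 changes given are on that scale, which understates the change of genes near 1 CPM. In SCR cells 1 of 10 members passed, against 12.3% of all 14228 genes tested (10.5% with a change of at least 2-fold). In siB cells 6 of 10 passed, against 52.2% of 14928 genes (19.7% with at least 2-fold), a share near the background. The libraries of the AAI and DMSO groups did not overlap for 6 members in SCR cells (33.8% of all genes) and for 6 in siB cells (60.8%). The labels do not say that replicates came from separate cultures, so the p-values measure the spread between these samples, which may be technical. In bulk RNA, fewer cells of a kind and less RNA per cell cannot be told apart.

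The general shift of the table bears on direction. With AAI the median change of all genes was 0.18 in SCR and 0.10 in siB cells on the log2 scale, and median-ratio size factors moved these medians by 0.20 and 0.12. Relative to the median of all genes, WIPI1 changed by -1.64 in SCR and -1.19 in siB cells. In siB cells the same measure was -1.07 for GABARAPL1, -0.76 for SQSTM1, -0.54 for ATG5, 0.38 for BECN1 and 0.33 for MAP1LC3B, so no member that passed lost its direction.

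**Figure D2:**
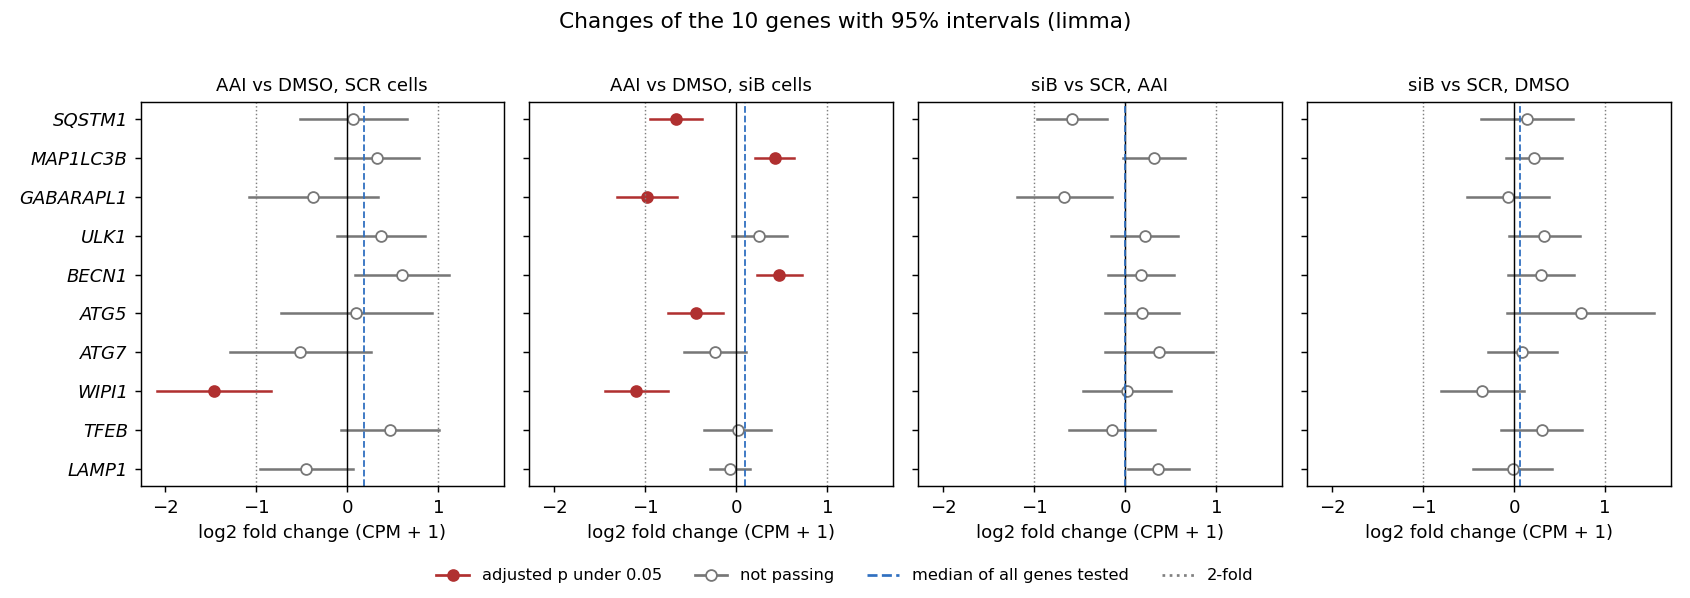
Log2 fold change of the 10 genes (points) with 95% intervals (lines) in the 4 comparisons of pairs of groups. Red filled points passed the test, dotted lines mark 2-fold and the dashed line marks the median of all genes tested. WIPI1 passes in SCR and siB cells given AAI, 5 further genes pass in siB cells alone, and without the replicate block none pass between siB and SCR.

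ULK1, the initiating kinase, was read at 106, 105 and 84.2 CPM in SCR DMSO and at 141, 129.6 and 111 CPM in SCR AAI. The siB readings were 110.3, 131 and 131 CPM with DMSO and 171, 125 and 149 CPM with AAI. The groups did not overlap in SCR cells and overlapped in siB cells. The log2 change with AAI was 0.37 in SCR cells (SE 0.21, adjusted p = 0.300) and 0.25 in siB cells (SE 0.13, adjusted p = 0.142), and neither passed. Over the genes tested with all libraries, ULK1 passed in siB cells without siB AAI replicate 2 (0.37, adjusted p = 0.0482).

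BECN1, a core subunit of the lipid kinase complex, was read at 53.1, 43.2 and 47.1 CPM in SCR DMSO and at 83.4, 60.2 and 76.5 CPM in SCR AAI. In siB cells it went from 59.5, 56.4 and 60.5 CPM with DMSO to 88.5, 75.3 and 82.9 CPM with AAI. Every AAI library was above every DMSO library of its arm. BECN1 rose in siB cells (log2 change 0.47, SE 0.11, adjusted p = 0.00540). In SCR cells the change was 0.60 and did not pass (SE 0.22, adjusted p = 0.129), except with all 4 groups in the fit (adjusted p = 0.0139).

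WIPI1, the lipid-binding protein of the growing membrane, had the widest differences. Its levels were 13.4, 16.2 and 12.4 CPM in SCR DMSO and 5.47, 3.22 and 4.82 CPM in SCR AAI. With the knockdown they were 10.4, 10.5 and 11.3 CPM in DMSO and 4.17, 4.75 and 4.55 CPM in AAI. The AAI libraries of both arms lay together, below every DMSO library. The log2 change was -1.46 in SCR cells (SE 0.27, adjusted p = 0.0109) and -1.10 in siB cells (SE 0.15, adjusted p = 0.000333). In SCR cells the call was lost without SCR AAI replicate 1, 2 or 3 (adjusted p = 0.0687, 0.111 and 0.104), where the log2 change was still -1.28 to -1.59. Over the genes tested with all libraries it passed without replicate 1 (adjusted p = 0.0319) and not without replicate 2 or 3 (0.0648 and 0.0565). In siB cells the call held in all 21 alternatives.

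ATG5, part of the complex that places ATG8 proteins on the membrane, was read at 26.1, 10.3 and 20.7 CPM in SCR DMSO and at 19.3, 16.3 and 22.3 CPM in SCR AAI. The siB levels were 32.5, 27.4 and 30.8 CPM with DMSO and 21.0, 20.8 and 24.0 CPM with AAI. The siB DMSO libraries were above all others, and SCR DMSO replicate 2 was the lowest of the 12. ATG5 fell with AAI in siB cells (log2 change -0.45, SE 0.13, adjusted p = 0.0193). That call was lost with all 4 groups in the fit (adjusted p = 0.237), without siB DMSO replicate 3 (0.0761) and without siB AAI replicate 2 (0.0650). In SCR cells the log2 change was 0.10 (SE 0.36, adjusted p = 0.887), and it was -0.10 with median-ratio size factors.

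ATG7, the enzyme that activates ATG8 proteins and ATG12, passed in no comparison. It was read at 23.5 to 24.5 CPM in SCR DMSO and at 24.2 to 27.5 CPM in siB DMSO. With AAI it was read at 10.4, 16.4 and 25.6 CPM in SCR cells and at 21.0, 18.6 and 25.5 CPM in siB cells. Replicates 1 and 2 with AAI were below the DMSO libraries of their arm and replicate 3 was above them in SCR and within them in siB cells. The log2 change was -0.51 in SCR (SE 0.33, adjusted p = 0.368) and -0.23 in siB cells (SE 0.15, adjusted p = 0.218). ATG5 and ATG7 span 280 and 285 kb of hg38, and the other members span 10.7 to 52.3 kb.

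Among the ATG8 genes, AAI raised MAP1LC3B and lowered GABARAPL1 in siB cells. MAP1LC3B, whose protein is the usual marker of autophagosomes, was read at 95.2, 97.1 and 104 CPM in SCR DMSO and at 135, 105 and 133 CPM in SCR AAI. For siB cells the values were 116, 116 and 112 CPM with DMSO and 156, 146 and 160.0 CPM with AAI. The siB AAI libraries were the highest of the 12. MAP1LC3B rose in siB cells (log2 change 0.42, SE 0.095, adjusted p = 0.00471) and did not pass in SCR cells (0.33, SE 0.20, adjusted p = 0.339). Its near copy MAP1LC3B2 reached at most 0.498 CPM.

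GABARAPL1, of the GABARAP branch of the family, was read at 128, 119.7 and 85.3 CPM in SCR DMSO and at 121, 58.8 and 83.1 CPM in SCR AAI. Its siB levels were 109, 105 and 99.1 CPM with DMSO and 65.3, 43.98 and 50.6 CPM with AAI. The SCR groups overlapped, and the siB groups did not. GABARAPL1 fell in siB cells (log2 change -0.98, SE 0.15, adjusted p = 0.000510) and did not pass in SCR cells (-0.37, SE 0.31, adjusted p = 0.473). Its near copy GABARAPL3 reached at most 0.126 CPM.

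The CPM of GABARAPL1 divided by that of MAP1LC3B, a ratio within each library chosen after the values were seen, does not depend on how the libraries were scaled. It was 1.34, 1.23 and 0.822 in SCR DMSO and 0.897, 0.559 and 0.623 in SCR AAI. It was 0.943, 0.909 and 0.883 in siB DMSO and 0.419, 0.301 and 0.317 in siB AAI. The siB AAI libraries were below all the others, and the SCR groups overlapped in 1 library each. The means were 1.13 ± 0.274, 0.693 ± 0.179, 0.912 ± 0.0299 and 0.345 ± 0.0641 (SD, n = 3) in the same order of groups. The ratio is not corrected for transcript length, so it compares libraries and not the amounts of the 2 transcripts.

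**Figure D3:**
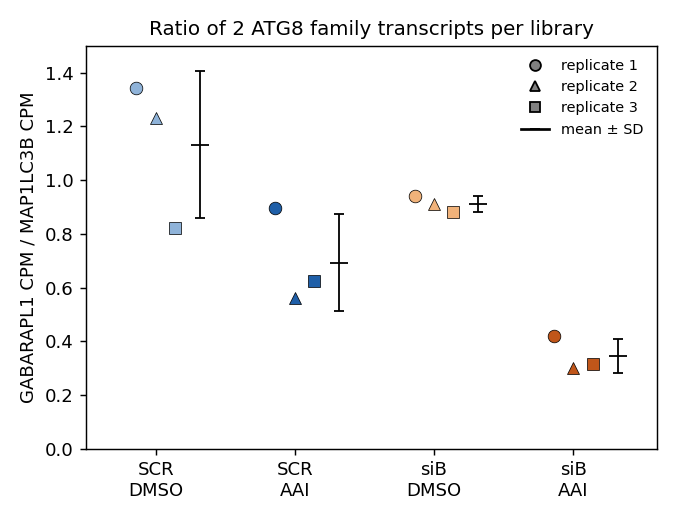
Ratio of GABARAPL1 CPM to MAP1LC3B CPM in each of the 12 libraries (vertical axis from 0, no unit), by group, with a marker for each replicate and bars for the mean ± SD (n = 3). The siB AAI libraries lie at 0.301 to 0.419, below every other library.

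SQSTM1, the cargo receptor, was read at 559, 863 and 898 CPM in SCR DMSO and at 673, 869.6 and 849.8 CPM in SCR AAI. The siB libraries gave 791, 844 and 872 CPM with DMSO and 437, 563 and 599 CPM with AAI. Replicate 1 was the lowest of its group in all 4 groups. The siB AAI libraries were lower than all others except SCR DMSO replicate 1, which lay between their values. SQSTM1 fell with AAI in siB cells (log2 change -0.66, SE 0.13, adjusted p = 0.00207). In SCR cells the change was 0.066 (SE 0.25, adjusted p = 0.895), and -0.15 with median-ratio size factors.

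TFEB, the transcription factor, was the least abundant member, at 2.13 to 4.64 CPM (56 to 105 reads per library). It was read at 3.004, 2.45 and 2.13 CPM in SCR DMSO and at 4.64, 4.03 and 3.01 CPM in SCR AAI, where the groups just failed to overlap. The siB libraries lay at 3.11 to 3.55 CPM with DMSO and at 3.001 to 3.72 CPM with AAI. The log2 change with AAI was 0.47 in SCR cells (SE 0.23, adjusted p = 0.247) and 0.018 in siB cells (SE 0.16, adjusted p = 0.935, or a log2 change of -0.078 with median-ratio size factors).

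LAMP1, the lysosome membrane glycoprotein, was read at 388, 585 and 453 CPM in SCR DMSO and at 372, 311 and 348 CPM in SCR AAI. With the knockdown it stood at 442, 484 and 465 CPM in DMSO and at 474, 404 and 451 CPM with AAI. SCR AAI was the lowest group and overlapped no other, but the change with AAI did not pass in SCR (log2 change -0.45, SE 0.22, adjusted p = 0.241) or in siB cells (-0.067, SE 0.099, adjusted p = 0.591, 95% interval -0.29 to 0.16).

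Between siB and SCR cells given AAI, 0 of 10 members passed in limma, against 9.28% of 14946 genes, and 3 members had an unadjusted p under 0.05 (25.5% of all genes did). The lowest adjusted p was that of SQSTM1, with a log2 difference of siB from SCR of -0.58 (SE 0.18, adjusted p = 0.0585). GABARAPL1 followed (-0.67, SE 0.24, adjusted p = 0.105), and LAMP1 was higher in siB (0.37, SE 0.15, adjusted p = 0.154). The SQSTM1 libraries of siB AAI were all below those of SCR AAI, and the LAMP1 and MAP1LC3B libraries were all above them (a lack of overlap seen in 30.8% of all genes). Same-numbered libraries of these 2 groups deviated together, and with the replicate number as a block the same 3 members passed, namely SQSTM1 (adjusted p = 0.000413), GABARAPL1 (0.000114) and LAMP1 (0.0384). With the block 3 of 10 members and 4325 of 14946 genes passed, so the share of members was near that of all genes. Without it 0 members and 1387 genes passed. Without SCR AAI replicate 1, SQSTM1 passed (-0.70, adjusted p = 0.0112), and without SCR AAI replicate 2, GABARAPL1 did (-0.92, adjusted p = 0.0425). With voom on whole reads recovered from the table, 0 members passed.

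Between siB and SCR cells in DMSO, 0 of 10 members passed in limma, 0 of 13606 genes did, and 0 members had an unadjusted p under 0.05 (644 genes, or 4.73%, did). Under voom and each of the other alternatives 0 members passed. The levels of 5 members were higher in every siB library than in every SCR library (8.28% of all genes were), namely ATG5 (log2 difference 0.73, SE 0.34), ULK1 (0.33, SE 0.16), TFEB (0.30, SE 0.18), BECN1 (0.30, SE 0.15) and MAP1LC3B (0.22, SE 0.13). WIPI1 was lower in every siB library (-0.35, SE 0.19), as were 3.64% of genes. Without SCR DMSO replicate 2 the ATG5 difference was 0.36.

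The difference between the AAI responses of the 2 arms was tested as an interaction over all 12 libraries. In limma 0 of 10 members passed (1.61% of 15325 genes did), and 1 member, SQSTM1, had an unadjusted p under 0.05 (13.3% of genes did). The SQSTM1 response in siB cells was lower than that in SCR cells by a log2 difference of -0.73 (95% interval -1.34 to -0.11, adjusted p = 0.273). For GABARAPL1 the difference was -0.60 (-1.38 to 0.17, adjusted p = 0.535), for ATG5 -0.55 (-1.39 to 0.30, adjusted p = 0.637) and for WIPI1 0.37 (-0.24 to 0.97, adjusted p = 0.664). The intervals of BECN1 (-0.61 to 0.35) and MAP1LC3B (-0.32 to 0.51) are narrower and include 0. The members that passed in siB cells alone were therefore not shown to respond differently from SCR cells. The pairwise comparisons share libraries with each other.

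Per kilobase of canonical transcript (GENCODE release 44), the order of levels in SCR DMSO was SQSTM1 (272 CPM per kb), LAMP1 (176), GABARAPL1 (58.9), MAP1LC3B (45.9), BECN1 (22.7), ULK1 (18.5), WIPI1 (7.34), ATG5 (5.98), ATG7 (4.47) and TFEB (1.08). SQSTM1 and LAMP1 overlapped there, as did GABARAPL1 and MAP1LC3B, WIPI1 and ATG5, and ATG5 and ATG7. In siB AAI, SQSTM1 (188 CPM per kb) and LAMP1 (164) still overlapped, MAP1LC3B came next (71.8) and then BECN1 (39.0), both clear of their neighbours. GABARAPL1 (28.3 CPM per kb) followed and overlapped ULK1 (27.9). WIPI1 stood above ATG7 in both DMSO groups and below it in both AAI groups, where they overlapped in SCR AAI.

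Of the members, 9 overlap another annotated gene, mostly on the opposite strand, and whether the counting used strand is not given in the sources used here. Reads of a member and of an antisense neighbour can then not be told apart. FBXO31, which overlaps MAP1LC3B, rose with AAI in SCR (0.89, adjusted p = 0.0466) and siB cells (0.68, adjusted p = 0.00340), the direction of MAP1LC3B. ARSG, which overlaps WIPI1, was read at 2.96 to 5.74 CPM (group means) and fell in siB cells (-0.49, adjusted p = 0.0403). VGLL4, which overlaps ATG7, fell in siB cells (-0.50, adjusted p = 0.00464). MGAT4B, which overlaps SQSTM1 and was read at 336 to 457 CPM (group means), and PSME3, which overlaps BECN1, at 153 to 199 CPM, did not pass in siB cells (log2 changes 0.037, adjusted p = 0.789, and -0.042, adjusted p = 0.784). The share of member reads from any of these neighbours was not tested. LAMP1 overlaps no other gene.

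In the wider pathway, 10 lists by function held 197 other genes. With AAI in SCR cells 6 of 185 tested genes were raised and 6 lowered (8.98% and 3.36% of all genes were), and in siB cells 34 of 186 were raised and 46 lowered (30.4% and 21.8%). MAP1LC3A met the filter on low values through the AAI libraries alone, and without it 5 were raised in SCR and 33 in siB cells. In the siB and SCR cells given AAI, 4 of 186 were higher in siB and 4 lower (5.49% and 3.79%), and in DMSO 0 of 185 passed. With the replicate block 24 of 185 passed in SCR cells given AAI (2997 of 14228 genes in all did). Between siB and SCR given AAI 47 of 186 did (4325 of 14946 genes in all). With all 4 groups in the fit, 47 of 189 list genes passed with AAI in SCR cells and 40 of 189 in siB cells. Of all 15325 genes, 4094 and 5280 passed in that fit. The interaction passed for 1 of 189 list genes. The list counts of the 2 arms given below were therefore not shown to differ. The SCR calls changed with the libraries. Without SCR DMSO replicate 3, 4 list genes passed, without SCR DMSO replicate 2, 25, and without any 1 SCR AAI library 4 or 5 over the same genes and 0 with the filter applied anew. Of the SCR calls named below, those for RRAGA and CHMP2A were lost in the last of these fits alone (adjusted p up to 0.0865 and 0.0747). Those for RILP, ATP6V0B, MCOLN1, ATG4D and MLST8 were also lost without SCR DMSO replicate 3 (0.0502 to 0.107), that for ATG4D without SCR DMSO replicate 1 (0.0615), and those for ATP6V0B, MCOLN1 and ATG4D with median-ratio size factors (0.0533, 0.0818 and 0.101).

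**Figure D4:**
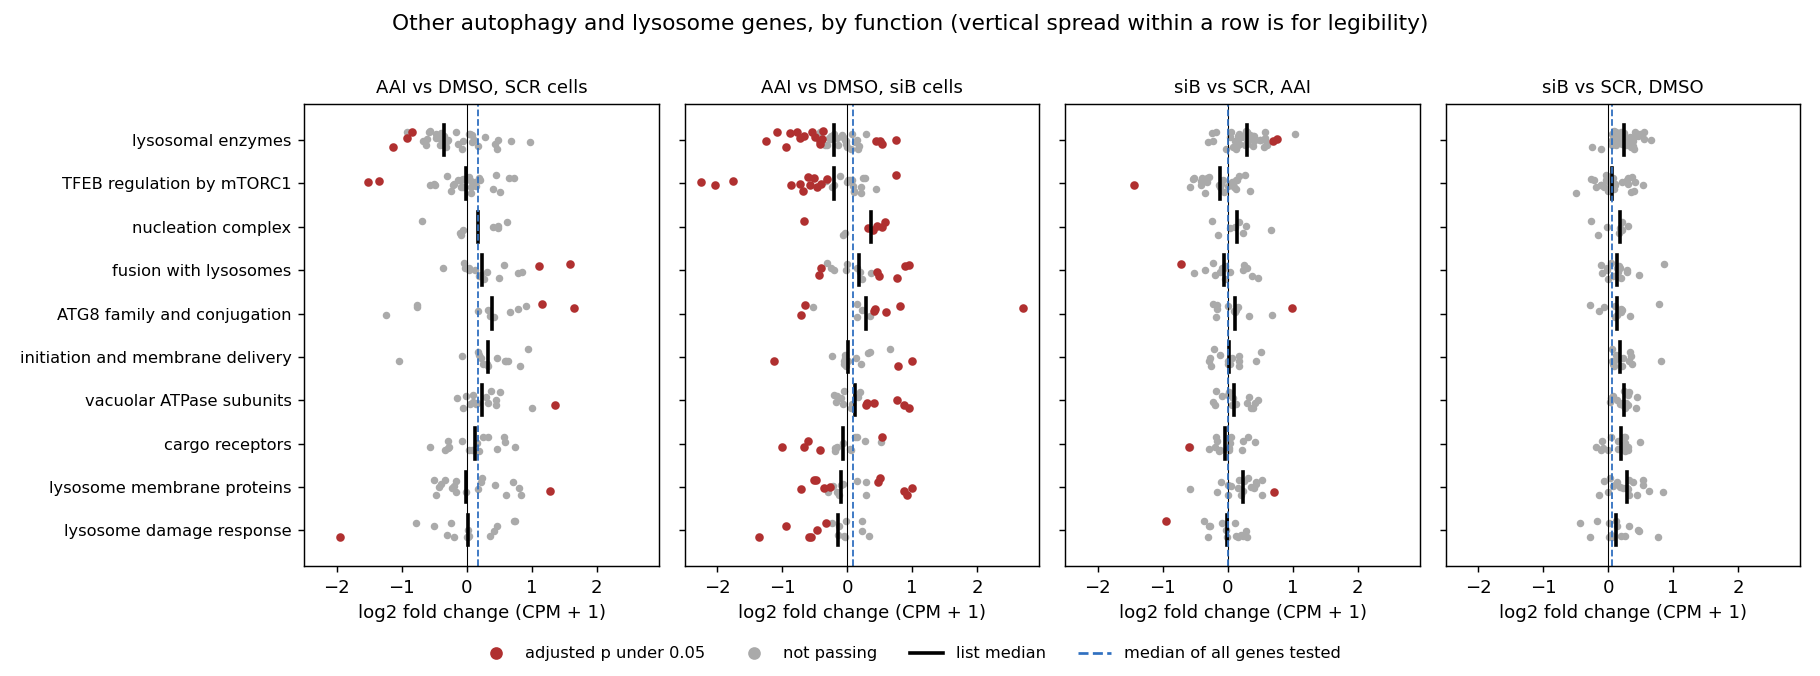
Log2 fold change of each gene of the 10 pathway lists (points, red where the gene passed the test) in the 4 comparisons, by list, with the list median (bar) and the median of all genes tested (dashed line). In siB cells given AAI the median of the nucleation complex (0.37) lies above that of all genes (0.10), and those of lysosomal enzymes and mTORC1 genes (both -0.20) lie below it.

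Upstream of TFEB, the mTORC1 kinase complex holds TFEB out of the nucleus when nutrients are present. Of 29 tested genes of this regulation, AAI lowered 12 and raised 1 (TSC1) in siB cells (41.4% and 3.45%, against 21.8% and 30.4% of all genes). In SCR cells it lowered 2 of 28 and raised 0 (3.36% and 8.98% of all genes). The list median was -0.20 in siB cells, against 0.10 for all genes. RRAGA, a Rag GTPase that brings mTORC1 to the lysosome, was read at 32.9, 39.3 and 37.8 CPM in SCR DMSO and at 14.9, 8.93 and 13.4 CPM in SCR AAI (log2 change -1.52, SE 0.27, adjusted p = 0.00890). In siB cells it went from 41.8, 54.4 and 51.9 CPM to 10.7, 8.86 and 9.11 CPM (-2.25, SE 0.15, adjusted p = 5.51e-06). MLST8, a subunit of mTORC1, fell in both arms as well (-1.35 in SCR, adjusted p = 0.0276, and -1.76 in siB cells, adjusted p = 2.97e-05). DDIT4, an inhibitor of mTORC1, fell in siB cells from 111 ± 8.89 to 26.6 ± 5.28 CPM (-2.04, adjusted p = 1.01e-05). The genes of the list lowered in siB cells were mixed in role, with subunits of the complex and with DDIT4, DEPTOR, SESN1 and SESN2, which restrain it. In AAI, DDIT4 was also lower in siB than in SCR cells (-1.43, adjusted p = 0.00426, or 0.0512 without SCR AAI replicate 3).

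Of the nucleation complex around BECN1, AAI raised 5 of 8 tested genes in siB cells (PIK3C3, PIK3R4, ATG14, UVRAG and NRBF2; 30.4% of all genes rose), and lowered BCL2, which binds and holds back BECN1. The list median was 0.37, against 0.10 for all genes. In SCR cells 0 of 8 passed (12.3% of all genes did) and the median was 0.17, against 0.18 for all genes. The interaction test was passed by 0 of 8 (1.61% of all genes). Of the initiation list, RB1CC1 and ATG2B rose and VMP1 fell among 15 tested in siB cells (13.3% and 6.67%, against 30.4% and 21.8% of all genes). In SCR cells 0 of 14 passed (12.3% of all genes did). Of 12 ATG8 and conjugation genes, GABARAPL2, ATG3, ATG12 and ATG16L1 rose and 2 fell (GABARAP and ATG16L2) in siB cells, where 30.4% of all genes rose and 21.8% fell. In SCR cells ATG4D rose, which encodes a protease that trims ATG8 proteins (log2 change 1.16, adjusted p = 0.0280).

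MAP1LC3A, a relative of MAP1LC3B that was picked out after its values were seen, was near the detection limit without AAI. It had 1, 4 and 1 reads in SCR DMSO and 1, 0 and 0 reads in siB DMSO. With AAI it had 61, 43 and 48 reads in SCR cells (3.37, 1.95 and 1.88 CPM) and 140, 77 and 103 reads in siB cells (8.84, 3.55 and 5.52 CPM). Every AAI library was above every DMSO library. It met the filter on low values through its AAI libraries alone, so in these comparisons only its values are given, with no test and no fold. Between the AAI groups, where every library was above 1 CPM, MAP1LC3A was higher in siB than in SCR cells (log2 difference 0.99, adjusted p = 0.0493). That call was lost without SCR AAI replicate 2 (adjusted p = 0.141) or 3 (0.196), siB AAI replicate 1 (0.167) or 3 (0.124), with voom (0.0610), with a pseudocount of 0.1 (0.0524) and without a filter (0.133). With the replicate block it passed (adjusted p = 1.26e-05).

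Of 16 cargo receptors and mitophagy genes tested with AAI in SCR cells 0 passed (12.3% of all genes did). Of 15 in siB cells WDFY3 rose while CALCOCO2, BNIP3, BNIP3L and PINK1 fell (6.67% and 26.7%, against 30.4% and 21.8% of all genes). For fusion of autophagosomes with lysosomes, 5 of 16 genes rose and 2 fell in siB cells (31.25% and 12.5%). The raised share was near the 30.4% of all genes, and 21.8% of all genes fell. EPG5, a tethering factor, went there from 87.1 ± 7.94 to 170.0 ± 20.8 CPM (0.95, adjusted p = 0.000213). In SCR cells VPS11 and RILP rose among 16 tested (12.5%, against 8.98% of all genes) and 0 fell (3.36% of all genes). RILP, a Rab7 effector, begins 763 bases past the end of PRPF8 on the same strand, a gene at a mean of 580 CPM, and the share of its reads that came from there was not tested. RILP was the 1 list gene of 189 that passed the interaction test (-1.58, adjusted p = 0.0368), a call that held in 8 of 32 alternatives.

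Lysosomal enzymes counted more lowered than raised genes with AAI. In siB cells 13 of 41 fell, CTSD and CTSA among them (31.7%, against 21.8% of all genes). There 4 rose, IDS, MANBA and SMPD1 among them (9.76%, against 30.4%), and the list median was -0.20. In SCR cells 3 of 41 fell, NEU1 among them, 0 rose and the median was -0.34 (3.36% of all genes fell and 8.98% rose). Given AAI, 37 of 42 enzymes had higher levels in siB than in SCR cells (50.3% of all genes did; median 0.30, and 0.0023 over all genes), of which ARSB (0.76, adjusted p = 0.0251) and MANBA (0.70, adjusted p = 0.0381) passed. Without AAI, 39 of 41 had higher levels in siB (60.4% of all genes did) and 0 passed.

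The vacuolar ATPase, the proton pump that acidifies lysosomes, had 6 of 16 tested genes raised and 0 lowered with AAI in siB cells, a raised share near the 30.4% of all genes. ATP6V1C1 went from 105 ± 23.5 to 202 ± 8.61 CPM (0.96, adjusted p = 0.000617, or 0.110 with all 4 groups in the fit). In SCR cells ATP6V0B rose from 83.1 ± 18.7 to 214 ± 42.1 CPM (1.36, adjusted p = 0.0103), and it begins 1118 bases past the end of DPH2 on the same strand. In DMSO all 16 had higher levels in siB than in SCR cells (60.4% of all genes did), with a median of 0.24 and 0 passing. Of 19 lysosome membrane proteins, 5 rose and 5 fell with AAI in siB cells (26.3% each, near the 30.4% and 21.8% of all genes). The calcium channel gene MCOLN1 rose in SCR cells (1.28, adjusted p = 0.0254) and in siB cells, and begins 1599 bases past the end of ZNF358. TMEM192 rose in siB cells, from 32.2 ± 5.15 to 64.7 ± 3.13 CPM (0.99, adjusted p = 0.000295), and OSTM1 rose there (0.92, adjusted p = 0.00295, or 0.0683 with all 4 groups in the fit). TPCN1, another lysosomal channel, was higher in siB than in SCR cells given AAI (0.71, adjusted p = 0.0302).

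Of 15 genes of the response to damaged lysosomes, AAI lowered 6 (LGALS3, VCP, CHMP2A, CHMP3, TSG101 and GPNMB) and raised 0 in siB cells. Of all genes 21.8% were lowered and 30.4% raised there. In SCR cells AAI lowered CHMP2A alone (6.67% of 15, against 3.36% of all genes) and raised 0 (8.98% of all genes). CHMP2A, a subunit of the membrane repair complex ESCRT-III, was read at 40.3, 70.3 and 32.5 CPM in SCR DMSO and at 10.6, 10.97 and 11.6 CPM in SCR AAI (log2 change -1.94, SE 0.32, adjusted p = 0.00626). In siB cells it went from 38.5, 36.9 and 35.5 CPM to 11.4, 13.8 and 16.6 CPM (-1.36, SE 0.16, adjusted p = 0.000104). In both arms the AAI libraries lay below all DMSO libraries. CHMP2A begins 607 bases past the end of UBE2M on the same strand, a gene at a mean of 114 CPM. Given AAI, TRIM16 was lower in siB than in SCR cells (-0.95, adjusted p = 0.0100), as were KEAP1 (-0.60, adjusted p = 0.0246), the inhibitor of NRF2, and RILP (-0.73, adjusted p = 0.0444). The calls for KEAP1, RILP, ARSB, MANBA and TPCN1 were lost without SCR AAI replicate 3. They were also lost in further fits that left out SCR AAI replicate 2 or a siB AAI library (adjusted p up to 0.120, 0.152, 0.141, 0.146 and 0.156). With all 4 groups in the fit those for KEAP1, RILP and MANBA were lost (0.132, 0.0909 and 0.113). Unfiltered, those for TPCN1, MANBA and RILP were lost (0.0596, 0.0616 and 0.0774). The TPCN1 call was lost with median-ratio size factors (0.0559), and the RILP call with a filter at a mean of 5 CPM (0.0509). Those for DDIT4 and TRIM16 were lost without SCR AAI replicate 3 (adjusted p = 0.0512 and 0.0702).

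Over the 12 libraries, the gene whose centred log2(CPM + 1) lay closest to that of WIPI1 was ANXA6 (root mean square difference 0.177), followed by NDE1 (0.179) and FAM83D (0.182), against a median of 0.778 over 11580 genes. Closest to GABARAPL1 were HMGB2 (0.147), ING4 (0.153) and ARMCX2 (0.154), against a median of 0.598. Closest to BECN1 were GPAT4 (0.0884), HCCS (0.0955) and CYCS (0.0980), against a median of 0.453. ANXA6, like WIPI1, had lower group means with AAI (33.1 and 32.6 CPM in SCR and siB cells) than with DMSO (82.2 and 77.3 CPM). GPAT4, like BECN1, had higher means with AAI (147 and 164 CPM) than with DMSO (97.1 and 115 CPM). These are likenesses over libraries that share 4 conditions.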

How the data were processed

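Bulk RNA sequencing of HK-2 cells was analysed in 12 libraries, grouped by the condition and replicate number in their titles, since a treatment label reading DMSO was given to all of them. The columns of the table were matched to titles by arm, initial (A or D) and number, and the library names in the labels (A and a number) follow another scheme. The authors aligned paired-end reads to hg38 and counted them per gene (UCSC annotation) on BioJupies, and the aligner and strand setting are not given in the sources used here. The authors deposited log10 values, log10(CPM + 1) for 35238 genes. CPM was recovered from them, and whole reads within a tolerance of 0.02. The limit that 0 reads allow (3 reads) ran from 0.0701 to 0.189 CPM, covering counting error only.

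Each pair of groups was fitted alone with limma 3.58.1 in R 4.3.3 (trend, log2 of CPM plus 1, genes with at least 1 CPM in at least 3 libraries), and the interaction over all 4 groups. Every adjusted p is limma's, by Benjamini-Hochberg over all genes tested. Scripts were tested on simulated counts with the same spread setting in every group, so the unequal spread of these groups was not part of that test. Each fit was repeated with median-ratio size factors, with totals that left out AC010970.2, with voom, without the trend, with the replicate number as a block, over all 4 groups, with 0.1 as the pseudocount, with a filter at a mean of 5 CPM, unfiltered, and with each library left out, the filter being applied anew or the fit made over the genes tested with all libraries.

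Libraries with the same number were compared by their deviations from the group means over 14465 genes, which correlated at 0.35 to 0.49 between SCR DMSO and SCR AAI and at 0.30 to 0.64 between SCR AAI and siB AAI, so these numbers were read as pairing the libraries (every correlation over 0.1). The fits reported first have no block, and where the block changed a member's call its value stands beside it. For list genes the block is given in totals and for MAP1LC3A, and the counts by list come from fits without it. Between siB DMSO and siB AAI the correlations were 0.025 to 0.22, and between SCR DMSO and siB DMSO -0.20 to 0.74, and these were not read so.

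Named genes were the 10 members, POLR2A, up to 4 list genes each way per comparison (passing, mean of at least 5 CPM, no overlap, largest change), and for the 3 members with the widest spread the 3 genes most like them. Some list genes that passed are not reported here by name. Further list genes that passed are named by list, and MAP1LC3A and per-library values of list genes were chosen after their values were seen. The members and lists were chosen with earlier results of these data known. Coordinates are 1-based on hg38 with GENCODE release 44, and promoter windows came from RefSeq (GRCh38.p14).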

Additional observations from a re-analysis of the deposited data

Results flagged for a closer look

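The AAI response of RILP differed between the arms by the interaction term of limma (log2 difference -1.58, SE 0.33, adjusted p = 0.0368). RILP was read at 5.08, 8.64 and 5.33 CPM in SCR DMSO and at 18.1, 26.5 and 18.0 CPM in SCR AAI, and at 10.2, 11.4 and 14.9 CPM in siB DMSO and at 11.4, 11.4 and 13.3 CPM in siB AAI. All siB libraries were above the SCR libraries in DMSO and below them in AAI. The interaction term kept its direction in all 32 alternatives and passed in 8 of them, with adjusted p between 0.00881 and 0.211. It was lost with voom (adjusted p = 0.211), with median-ratio size factors (0.106), with a filter at a mean of 5 CPM (0.166), with a pseudocount of 0.1 (0.0739), and without SCR DMSO replicate 1 (0.0820) or 3 (0.0995), SCR AAI replicate 2 (0.0990) or 3 (0.0734), or any 1 siB library (0.0698 to 0.175).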

How the results depend on the processing

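With AAI in SCR cells 1 member passed, 2 with all 4 groups in the fit and 0 to 1 with a library left out. With AAI in siB cells 6 passed, and 5 to 6 under the alternatives. For siB against SCR given AAI 0 passed, 3 with the replicate block and 0 to 1 with a library left out. In DMSO and for the interaction 0 passed in all alternatives. The replicate block changed no other count of members. It raised the list genes that passed from 12 to 24 in SCR cells given AAI, from 8 to 47 between siB and SCR given AAI, and from 1 to 4 for the interaction. With all 4 groups in the fit these counts were 47 in SCR and 40 in siB cells (80 in the pairwise fit), and with a library left out they ran from 0 to 25 in SCR, 49 to 88 in siB and 0 to 22 between siB and SCR given AAI. Over all genes, 1755 passed with AAI in SCR cells, 2997 with the block and 4094 with all 4 groups in the fit. In siB cells 7794 genes passed, and 5280 with all 4 groups. Between siB and SCR given AAI 1387 genes passed, and 4325 with the block. For the interaction 247 genes passed, and 389 with the block.

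Among members, direction turned only for those that did not pass. Median-ratio size factors gave SQSTM1 -0.15 and ATG5 -0.10 in SCR cells, TFEB -0.078 in siB cells and WIPI1 -0.013 between siB and SCR given AAI. With a library left out the log2 changes ran from -0.15 to 0.19 for SQSTM1 and -0.27 to 0.36 for ATG5 in SCR cells, -0.036 to 0.084 for TFEB in siB cells, and -0.16 to 0.15 for WIPI1 between siB and SCR given AAI. In DMSO they ran from -0.076 to 0.27 for SQSTM1, -0.24 to 0.049 for GABARAPL1 and -0.15 to 0.14 for LAMP1, and for the interaction from -0.025 to 0.59 for ATG7 and -0.023 to 0.16 for MAP1LC3B. The cause was not tested. With a filter at a mean of 5 CPM, TFEB was not tested, nor was WIPI1 between siB and SCR given AAI. The depth of TFEB, 56 to 105 reads, limits the precision of its values.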
